A study of Mus musculus with 2 samples.

Results

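The genes described here encode the enzymes that attach glutathione, glucuronic acid or sulfate to other molecules. They were taken by name as every glutathione transferase (Gsta, Gstk, Gstm, Gsto, Gstp, Gstt, Gstz and Mgst), every UDP-glucuronosyltransferase of the Ugt1a, Ugt2a and Ugt2b families and every cytosolic sulfotransferase (Sult), which gave 72 of 55536 annotated genes. Of the 72 members, 65 are protein coding, 6 are unprocessed pseudogenes and 1 is a processed pseudogene. There are 26 glutathione transferases, 19 glucuronosyltransferases and 27 sulfotransferases. The 6 unprocessed pseudogenes are counted among the sulfotransferases and the processed one among the glutathione transferases. Membership used gene names and no measured value, but the rule was drawn up with earlier results of these data known. It also set members in both libraries against those only in the library with high Alb (serum albumin), which is replicate 2. That contrast therefore rests on a measured level.

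Glutathione transferases couple the thiol of glutathione to electrophiles such as lipid peroxidation products, and several also reduce peroxides or isomerise substrates. UDP-glucuronosyltransferases sit in the endoplasmic reticulum and pass glucuronic acid from UDP-glucuronate to bilirubin, phenols, steroids and bile acids, and cytosolic sulfotransferases pass sulfate from PAPS to phenols, steroids, amines and bile acids. Liver is the best known site of all 3 reactions, and in the adrenal cortex they meet a heavy load of steroids and of oxidants made by steroidogenic P450 enzymes.

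The tissue was adrenal gland of male B6CASTF1/J mice, a hybrid of a laboratory strain and a wild-derived strain, taken at 25 days of age with no treatment named. Total RNA was sequenced after ribosomal RNA reduction from 300 ng of input with ERCC spike-ins, and the single group holds 2 libraries, replicate 2 and replicate 1. The biosample labels give animal 4 for replicate 2 and animal 3 for replicate 1, but the library labels give animal 3 for both and the donor label is shared, so the spread between the libraries may be technical. There is no comparison between conditions, only levels and the difference between these libraries, and with 1 library on each side no p-value was computed.

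The libraries differed in markers of other tissues and of a zone of the cortex. All 7 adrenal cortex markers were present in both libraries, with a summed level of 6802 TPM (a level scaled to transcript length and to the library total) in replicate 2 and 12342 TPM in replicate 1. The 3 markers of the X-zone, an inner cortical zone of young mice, did not move together: Akr1c18 had 75.4 TPM in replicate 2, against 527 TPM in replicate 1, Pik3c2g had 4.34 TPM in replicate 2, against 1.36 TPM in replicate 1, and Thrb was within 2-fold. The 8 liver markers summed to 21745 TPM in replicate 2, where they ranged between 524 and 11949 TPM, against 30.1 TPM in replicate 1, where none was at 0 and Alb, the serum albumin gene, had 16.3 TPM. The 6 skeletal muscle markers summed to 1.76 TPM in replicate 2, against 1179 TPM in replicate 1. The 3 Kupffer cell markers, of liver macrophages, summed to 20.9 TPM in replicate 2, against 0.28 TPM in replicate 1. All 5 markers of white and brown fat were present in both libraries, with a sum of 1418 TPM in replicate 2, against 2020 TPM in replicate 1. None of the 5 kidney markers reached 1 TPM in either library, and Umod, Slc34a1 and Slc12a1 were at 0 in both. The library totals were 35156690.03 expected counts in replicate 2 and 35283841 in replicate 1. The part of liver, muscle or fat RNA in the results on the conjugation enzymes was not tested. In bulk tissue, fewer cells of a type and less RNA per cell cannot be told apart.

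At a level of at least 1 TPM, 25 of the 72 members (34.7%) were detected in both libraries, where 23.6% of all annotated genes were. These shares come from unlike sets, since 65 of the members are protein coding and the annotated genes are of every kind, noncoding included. Another 24 members reached that level in replicate 2 only, 0 in replicate 1 only and 23 in neither. The 24 seen in replicate 2 only made up 49% of the 49 members detected at all, against 6.07% of the 14725 genes detected in either library. Among the glutathione transferases 19 of 26 were detected in both libraries and 4 in replicate 2 only. Among the glucuronosyltransferases 3 of 19 were detected in both and 12 in replicate 2 only, and among the sulfotransferases 3 of 27 in both and 8 in replicate 2 only. Of the 23 members detected in neither library, 18 had too few counts for a ratio, among them 11 with 0 counts in both.

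The ratio between the libraries was taken as replicate 2 over replicate 1 on counts scaled by the TMM method, for genes with at least 10 counts in total, and a gene was called at a ratio of at least 2-fold. Of the 54 members with enough counts, 39 (72.2%) were higher in replicate 2, against 10.2% of the 19801 genes compared, and 0 were lower, against 3.93% of those genes. The other 15 members lay within 2-fold. The median log2 ratio was 2.75 over the 54 members, with 8 of them at a lower bound because replicate 1 had 0 counts, and -0.01 over all genes compared. Intervals given below are 95% exact Clopper-Pearson intervals of counting error only.

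**Figure D1:**
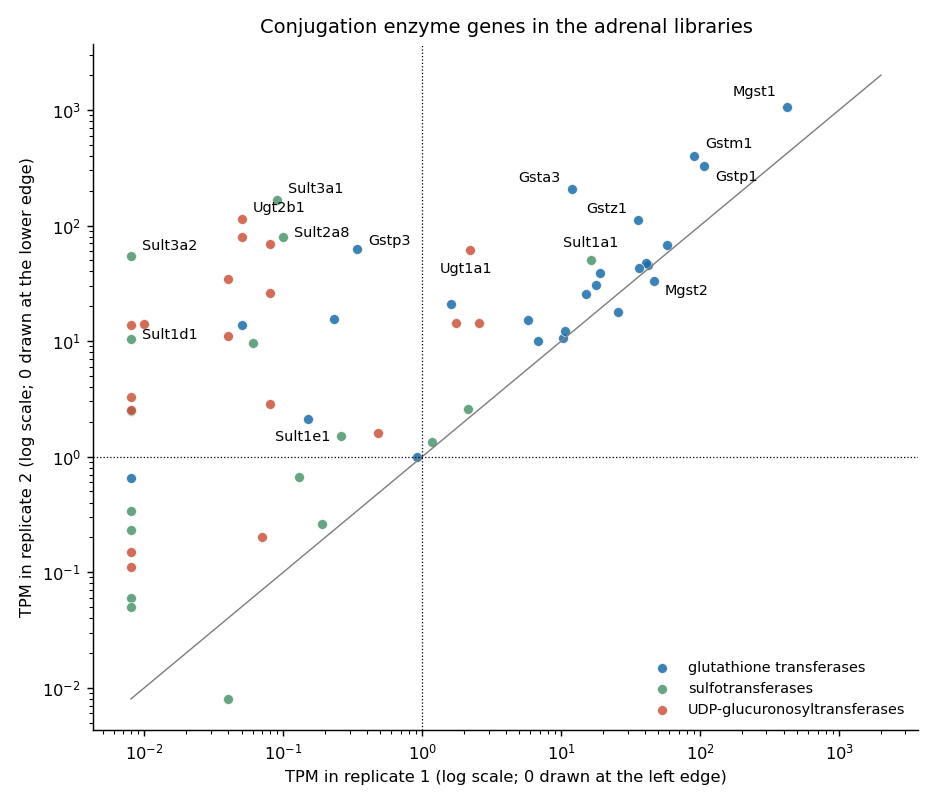
Level of each conjugation enzyme gene in replicate 2 (vertical axis, TPM) and in replicate 1 (horizontal axis, TPM), both on log scales, 1 point a gene with counts in either library. The grey line marks equal levels and the dotted lines 1 TPM; the 24 members detected in replicate 2 only stand in the upper left, and Mgst1 is the highest in both libraries.

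In replicate 2 the members summed to 3479 TPM, against 1035 TPM in replicate 1, or 0.226 ± 0.173% of all TPM (SD, n = 2). The glutathione transferases held most of it, with 2631 TPM in replicate 2, against 1007 TPM in replicate 1. Glucuronosyltransferases summed to 463 TPM in replicate 2, against 7.51 TPM in replicate 1. Sulfotransferases summed to 384 TPM in replicate 2, against 20.6 TPM in replicate 1. The ratio of the sums was 61.7 for glucuronosyltransferases, 18.6 for sulfotransferases and 2.61 for glutathione transferases. Members detected in both libraries carried 77.0% of the members' TPM in replicate 2 and 99.7% in replicate 1.

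**Figure D2:**
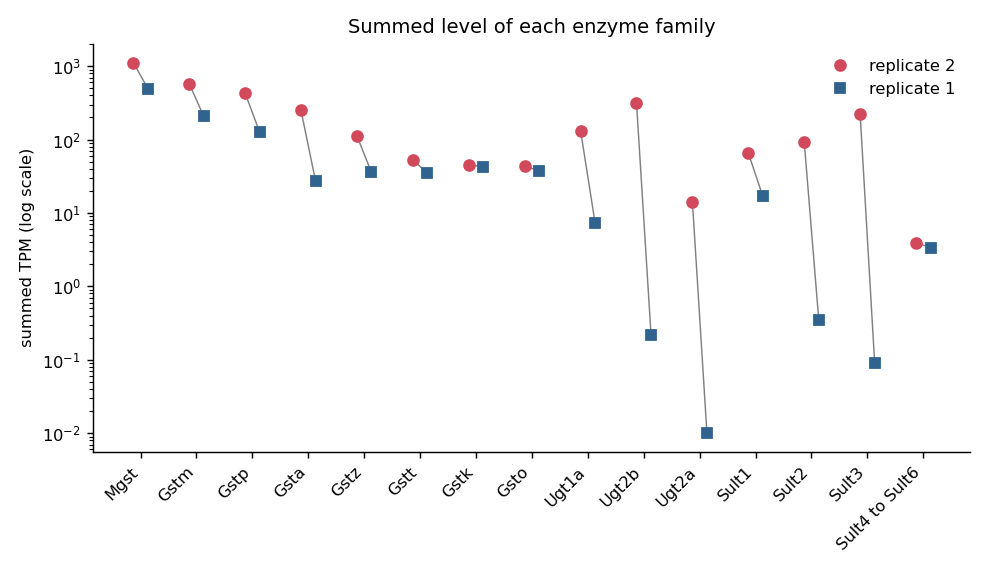
Summed TPM of each enzyme family on a log scale, replicate 2 as circles to the left and replicate 1 as squares to the right, joined by a line. Mgst, Gstm and Gstp were the highest families in both libraries. Ugt2b, Ugt2a, Sult2 and Sult3 summed to under 1 TPM in replicate 1.

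Among the membrane-bound glutathione transferases, Mgst1 was the most abundant member in both libraries. It encodes the enzyme of the endoplasmic reticulum and outer mitochondrial membrane that conjugates glutathione and reduces lipid hydroperoxides. Mgst1 (ENSMUSG00000008540.11, chr6:138140316-138156755 in mm10, as for all gene positions below) had 1069.95 TPM in replicate 2, against 424 TPM in replicate 1, with a log2 ratio of 1.5 (1.46 to 1.54). Its relatives Mgst2 and Mgst3, which can make leukotriene C4 from leukotriene A4, were the only members with a ratio below 1 under TMM scaling, joined by Gstk1, Gstm5 and Gsto2 under spike-in scaling. Mgst2 had 33.3 TPM in replicate 2, against 46.4 TPM in replicate 1, a log2 ratio of -0.26 (-0.41 to -0.10). Mgst3 had 17.8 TPM in replicate 2, against 25.5 TPM in replicate 1, a log2 ratio of -0.30 (-0.45 to -0.14). Both lay within 2-fold. The median log2 ratio was -0.64 over the 7 adrenal cortex markers, -0.28 over the 5 chromaffin markers and -0.17 over the 5 fat markers.

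The mu class of cytosolic transferases is encoded by 7 genes side by side at chr3:107895821-108044894, and their levels differed widely along the cluster. Gstm1 was the highest of them, with 403 TPM in replicate 2, against 90.3 TPM in replicate 1, a log2 ratio of 2.41 (2.35 to 2.46). Gstm2 had 67.4 TPM in replicate 2, against 58.1 TPM in replicate 1. Gstm7 had 47.2 TPM in replicate 2, against 40.9 TPM in replicate 1. Gstm2 and Gstm7 thus stood at nearly the same level in both libraries, with log2 ratios of 0.45 and 0.38. Gstm5 behaved likewise at a lower level, with 10.7 TPM in replicate 2, against 10.2 TPM in replicate 1. Gstm4 was higher in replicate 2, with 15.2 TPM, than in replicate 1, with 5.73 TPM. Gstm6 had 20.9 TPM in replicate 2, against 1.62 TPM in replicate 1, a log2 ratio of 3.88 (3.5 to 4.29). Gstm3 was the 1 gene of the cluster not detected in replicate 1: it had 13.9 TPM in replicate 2, against 0.05 TPM in replicate 1, from 572 and 2.11 counts, a ratio of 337 with an interval of 93.0 to 2793. Neighbouring genes of 1 cluster therefore covered log2 ratios between 0.24 (Gstm5) and 8.40 (Gstm3). Outside the cluster, the processed pseudogene Gstm2-ps1 had 12.3 counts in replicate 2 and 0 in replicate 1, below the detection level.

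The pi class also differed among its 3 adjacent genes at chr19:4035407-4059569. Gstp1, the main pi-class enzyme, had 327 TPM in replicate 2, against 107 TPM in replicate 1, a log2 ratio of 1.78 (1.71 to 1.85). Gstp3 had 62.6 TPM in replicate 2, against 0.34 TPM in replicate 1, a log2 ratio of 7.73 (6.68 to 9.04). Gstp2 had 38.9 TPM in replicate 2, against 18.95 TPM in replicate 1, a log2 ratio of 0.93 (0.73 to 1.14), but this level is uncertain. In the second quantification Gstp2 had 29.5 TPM in replicate 2, against 39.7 TPM in replicate 1, the opposite order, while the log2 ratio of its estimated counts was 0.40. The deposited posterior SD of its count was 2.36 times the square root of the posterior mean in replicate 2 and 3 times in replicate 1, the highest of any member in each library. The transcript Gstp2-206 held 65.8% of the gene's TPM in replicate 2 and 42.2% in replicate 1. The coding sequences show how little separates it from its neighbour: Gstp1 and Gstp2 differ at 12 of 630 coding bases, 98.1% identity, with up to 300 bases in a row identical. Coding bases 1 to 60, the stretch of that length with the most differences, are given here from the GENCODE transcripts, with the 6 bases that differ in capitals.
Gstp1: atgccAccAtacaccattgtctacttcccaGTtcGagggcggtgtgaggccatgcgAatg
Gstp2: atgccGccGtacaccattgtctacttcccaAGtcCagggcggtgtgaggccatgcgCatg
Gstp3 was less alike, at 71.75% identity to each of them.

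**Figure D3:**
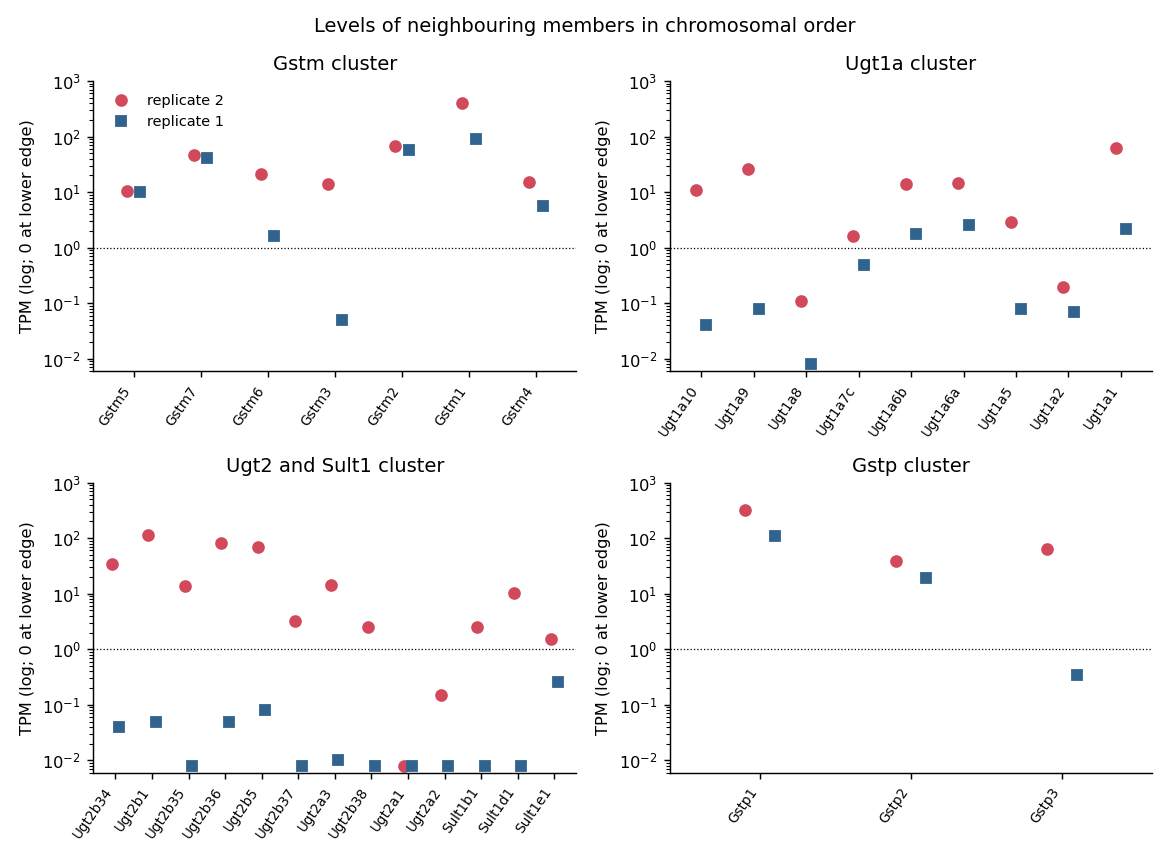
TPM on a log scale of neighbouring members in chromosomal order in 4 gene clusters, replicate 2 as circles and replicate 1 as squares, with 1 TPM dotted. Gstm5, Gstm7 and Gstm2 overlap between the libraries while Gstm3 does not, and every detected gene of the Ugt2 and Sult1 cluster reaches 1 TPM in replicate 2 alone.

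Alpha-class genes held the largest difference among transferases seen in both libraries. Gsta3 (chr1:21240589-21265661), whose human counterpart isomerises the double bond of delta-5 steroid intermediates, had 206 TPM in replicate 2, against 11.9 TPM in replicate 1, a log2 ratio of 4.36 (4.22 to 4.51). It was the fourth most abundant member in replicate 2 and ranked 15 in replicate 1. Gsta4, which clears the lipid peroxidation product 4-hydroxynonenal, had 25.3 TPM in replicate 2, against 15.0 TPM in replicate 1. Its log2 ratio of 0.98 (0.81 to 1.16) was just short of 2-fold. Gsta2 had 15.6 TPM in replicate 2, against 0.23 TPM in replicate 1, a log2 ratio of 6.32 (5.18 to 7.77). Gsta1 had 2.13 TPM in replicate 2, against 0.15 TPM in replicate 1, from 56.1 and 3 counts, a ratio of 22.0 with an interval of 7.16 to 110.0. The alpha class thus ran between a gene shared by both libraries, Gsta4, and genes near absent in replicate 1.

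Members of the remaining transferase classes were detected in both libraries with few exceptions. Gstz1, maleylacetoacetate isomerase of tyrosine breakdown, had 112 TPM in replicate 2, against 35.8 TPM in replicate 1, a log2 ratio of 1.76 (1.69 to 1.84). Gstt1 of the theta class had 30.5 TPM in replicate 2, against 17.7 TPM in replicate 1, and its log2 ratio of 1.02 (0.87 to 1.18) was just past 2-fold. Under scaling by total counts this ratio was 0.79, and under scaling by spike-ins 0.67, so Gstt1 was then within 2-fold. The mitochondrial and peroxisomal Gstk1 had 45.5 TPM in replicate 2, against 42.2 TPM in replicate 1. Gsto1, an omega-class enzyme that reduces dehydroascorbate, had 42.6 TPM in replicate 2, against 36.3 TPM in replicate 1. Gstk1 and Gsto1 were close to level between the libraries, with mean levels of 43.9 ± 2.30 and 39.5 ± 4.46 TPM (SD, n = 2). Gstt2 had 12.2 TPM in replicate 2, against 10.6 TPM in replicate 1. Gstt3 had 10 TPM in replicate 2, against 6.78 TPM in replicate 1, a log2 ratio of 0.80. Gsto2 lay just under the detection level, with 0.99 TPM in replicate 2, against 0.91 TPM in replicate 1, and Gstt4 had 0 counts in both.

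**Figure D4:**
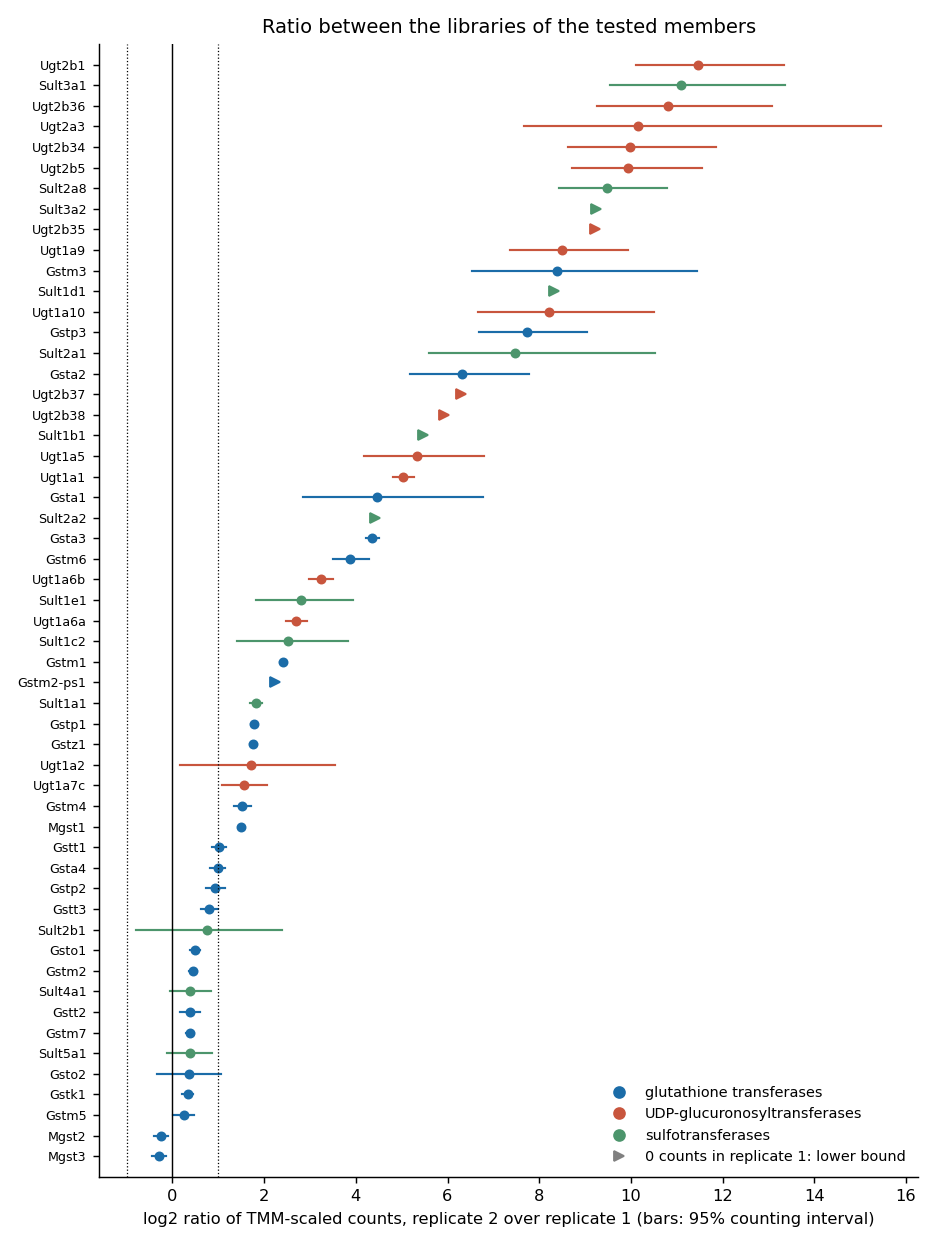
Log2 ratio of TMM-scaled counts, replicate 2 over replicate 1, of the 54 members with at least 10 counts, with 95% counting intervals as bars and triangles for lower bounds where replicate 1 had 0 counts. Dotted lines mark 2-fold; 15 glutathione transferases and sulfotransferases lie between them, all 16 glucuronosyltransferases lie to the right, and Mgst2 and Mgst3 are the lowest.

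All 16 glucuronosyltransferases with enough counts were called higher in replicate 2, against 10.2% of the 19801 genes compared. Their median log2 ratio was 7.26, which includes 3 genes at a bound. The Ugt1a genes at chr1:88055388-88220002 are alternative starts of 1 locus: each has its own opening coding exon, and the following 4 coding exons, 735 bases, were identical in all 9 genes of the annotation. The junctions below show the last 20 bases of each opening exon in capitals and the start of the shared exon in lower case, for the highest Ugt1a gene, for Ugt1a9 and for the Ugt1a6 pair.
Ugt1a1: AGAAAAAGCCCCTATCCCAGgaatttgaag
Ugt1a9: AGAAGAAGTCACTTTCCAAGgaatttgaag
Ugt1a6a: AGAAGGGAAAGCTGACTCAGgaatttgaag
Ugt1a6b: AGAAGGGAAAGCTGACTCAGgaatttgaag
Reads inside the shared exons cannot be given to 1 gene, and Ugt1a6a and Ugt1a6b are also 98.4% identical over their whole coding sequence, so the split within the locus is an estimate.

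Ugt1a1, the bilirubin-conjugating enzyme, was the highest of the locus, with 61.9 TPM in replicate 2, against 2.21 TPM in replicate 1, a log2 ratio of 5.04 (4.81 to 5.28). Ugt1a6a, an enzyme of planar phenols, had 14.3 TPM in replicate 2, against 2.56 TPM in replicate 1. Its copy Ugt1a6b had 14.3 TPM in replicate 2, against 1.76 TPM in replicate 1. These 3 genes were the only glucuronosyltransferases detected in both libraries, and the Ugt1a6 copies had the smaller log2 ratios, 2.70 (2.48 to 2.93) and 3.23 (2.97 to 3.51). Ugt1a9 had 25.8 TPM in replicate 2, against 0.08 TPM in replicate 1, a log2 ratio of 8.49 (7.37 to 9.94). Ugt1a10 had 11.0 TPM in replicate 2, against 0.04 TPM in replicate 1, from 761 and 2.72 counts, a ratio of 299 with an interval of 102 to 1454. Levels in replicate 2 were 2.85 TPM for Ugt1a5 and 1.61 TPM for Ugt1a7c, against 0.08 and 0.48 TPM in replicate 1. Ugt1a7c, with a log2 ratio of 1.57 (1.09 to 2.06), is uncertain, since its quantifications differed more than 2-fold beyond the usual ratio between them. In the second quantification it had 7.11 TPM in replicate 2, against 1.95 TPM in replicate 1. By those values it too was detected in both libraries. Ugt1a2 and Ugt1a8 stayed below 1 TPM in both libraries. The call of Ugt1a2 as higher rested on 14.0 counts in replicate 2 and 5.4 in replicate 1. The interval of its log2 ratio of 1.72, 0.17 to 3.55, reached below 2-fold. In replicate 1 Ugt1a6a, not Ugt1a1, had the highest TPM of the locus.

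The Ugt2b genes, whose products conjugate steroids, bile acids and drugs, lie on chromosome 5 together with Ugt2a and with 3 sulfotransferase genes. All 7 Ugt2b genes were detected in replicate 2 and none in replicate 1. Ugt2b1 was the highest, with 114 TPM in replicate 2, against 0.05 TPM in replicate 1, from 9559 and 4 counts, a log2 ratio of 11.46 (10.10 to 13.34), the largest of any member with counts in both libraries. Ugt2b36 had 80.2 TPM in replicate 2, against 0.05 TPM in replicate 1, from 4550 and 3 counts, a log2 ratio of 10.81 with an interval of 9.26 to 13.08. Ugt2b5 had 69.4 TPM in replicate 2, against 0.08 TPM in replicate 1, a log2 ratio of 9.93 (8.71 to 11.56). These 3 genes alone gave most of the summed Ugt2b level of 317 TPM in replicate 2, against 0.22 TPM in replicate 1. Ugt2b34 had 34.2 TPM in replicate 2, against 0.04 TPM in replicate 1, a log2 ratio of 9.98 (8.62 to 11.86). Ugt2b35 had 13.6 TPM in replicate 2 and 0 counts in replicate 1. It was 593-fold higher when replicate 1 is set to a floor of 3 counts, with a lower counting limit of 482-fold. Ugt2b37 and Ugt2b38 reached 3.26 and 2.54 TPM in replicate 2 and had 0 counts in replicate 1. Ugt2b37 is uncertain, with 1.05 TPM in the second quantification of replicate 2, and Ugt2b38 is 97.0% identical to Ugt2b5 over the coding sequence. Ugt2a3 had 14.1 TPM in replicate 2, against 0.01 TPM in replicate 1, from 967 and 1 counts, a ratio of 1141 with an interval of 204 to 45104. Ugt2a2 stayed at 0.15 TPM in replicate 2 and 0 in replicate 1, and Ugt2a1 had 0 counts in both.

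Among the sulfotransferases, Sult1a1 was the 1 gene above 3 TPM in both libraries. This enzyme of phenols and catechols had 50.6 TPM in replicate 2, against 16.4 TPM in replicate 1, a log2 ratio of 1.82 (1.70 to 1.95). Sult4a1, a brain form with no settled substrate, had 1.35 TPM in replicate 2, against 1.18 TPM in replicate 1. Sult5a1 had 2.58 TPM in replicate 2, against 2.15 TPM in replicate 1. Sult4a1 and Sult5a1 were therefore low and level, with log2 ratios of 0.39 (-0.06 to 0.83) and 0.38 (-0.11 to 0.86).

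Sult3a1, an enzyme that sulfonates amines, was the highest sulfotransferase of replicate 2 and near absent from replicate 1. It had 167 TPM in replicate 2, against 0.09 TPM in replicate 1, from 5516 and 3 counts, a log2 ratio of 11.08 with an interval of 9.53 to 13.36. Its neighbour Sult3a2 had 54.9 TPM in replicate 2 and 0 counts in replicate 1. Sult3a2 was 609-fold higher against the floor of 3 counts, with a lower counting limit of 494.5-fold. The pair is 90.9% identical over the 879 coding bases of transcripts Sult3a1-201 and Sult3a2-201. In replicate 2, however, 100% of the TPM of Sult3a2 was on Sult3a2-202. Coding bases 418 to 477 of the compared transcripts hold 16 of the 80 differences, in capitals here.
Sult3a1: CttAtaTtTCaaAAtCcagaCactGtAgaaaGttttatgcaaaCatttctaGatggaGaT
Sult3a2: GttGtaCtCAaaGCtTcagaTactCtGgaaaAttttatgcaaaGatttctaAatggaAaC
Sult2a8, a bile acid sulfotransferase of mouse liver, had 79.9 TPM in replicate 2, against 0.10 TPM in replicate 1, a log2 ratio of 9.47 (8.43 to 10.79). Sult2a1, of the hydroxysteroid class that sulfates DHEA, had 9.61 TPM in replicate 2, against 0.06 TPM in replicate 1, from 300.4 and 2 counts, a ratio of 177 with an interval of 48.6 to 1468. No Sult2a gene was thus detected in replicate 1, and of the 13 Sult2 members 10 were detected in neither library. These 10 include the pseudogenes Sult2a-ps1 to Sult2a-ps4. Sult2b1, the cholesterol and pregnenolone sulfotransferase, was also detected in neither, with 0.26 TPM in replicate 2, against 0.19 TPM in replicate 1. Sult1d1, which sulfates catecholamines in mouse, had 10.4 TPM in replicate 2 and 0 counts in replicate 1. It was 321-fold higher against the floor of 3 counts, with a lower counting limit of 260-fold. The estrogen sulfotransferase Sult1e1 had 1.52 TPM in replicate 2, against 0.26 TPM in replicate 1, a log2 ratio of 2.80 (1.82 to 3.93). Sult1c2 had 0.66 TPM in replicate 2, against 0.13 TPM in replicate 1, a log2 ratio of 2.52 (1.41 to 3.83) at levels below detection. Sult1b1 and Sult2a2 had 2.55 and 2.5 TPM in replicate 2 and 0 counts in replicate 1.

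Across the members the size of the ratio was graded rather than uniform. The 8 liver markers had log2 ratios between 8.97 and 11.58. Of the 39 members called higher, 9 had a log2 ratio at or above the lowest of these, namely Sult2a8, Sult3a1, Sult3a2, Ugt2a3, Ugt2b1, Ugt2b34, Ugt2b35, Ugt2b36 and Ugt2b5. Of the other 30, 6 are known only by a lower bound, and the intervals of some of the rest pass 8.97, such as that of Ugt1a9 (7.37 to 9.94), so the division at this value is not sharp. Of the 39, 8 had a log2 ratio between 1 and 2, and 6 of those 8 were detected in both libraries, namely Gstm4, Gstp1, Gstt1, Gstz1, Mgst1 and Sult1a1.

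The gene lists around the reaction partners held genes of supply and also of breakdown or removal. Median log2 ratios were 0.55 for glutathione synthesis and turnover and 0.98 for UDP-glucuronate supply with beta-glucuronidase. For sulfate donor supply and disposal the median was 0.19. The enzymes themselves had medians, bounds included, of 1.02 (glutathione transferases), 7.26 (glucuronosyltransferases) and 4.41 (sulfotransferases). For glutathione, 4 of 10 genes with enough counts were higher in replicate 2, 5 were within 2-fold and 1 was lower. Over all genes compared, 10.2% were higher and 3.93% lower, but the lists were chosen with earlier results of these data known. Gclm, the regulatory subunit of glutamate-cysteine ligase, had 63.6 TPM in replicate 2, against 29.6 TPM in replicate 1. Oplah, 5-oxoprolinase, had 30.5 TPM in replicate 2, against 28.4 TPM in replicate 1. Gsr, glutathione reductase, had 25.7 TPM in replicate 2, against 19.7 TPM in replicate 1. The log2 ratios of these 3 genes were 1.36, 0.33 and 0.56, next to 1.61 for the catalytic subunit gene Gclc. In the list around UDP-glucuronate, 2 of 5 genes were higher, the nucleotide sugar transporter genes Slc35d1 and Slc35d2. Which sugar each of them carries was not tested. Ugdh, which makes UDP-glucuronate, had 29.0 TPM in replicate 2, against 21.6 TPM in replicate 1, and Ugp2, a step earlier, had 43.0 TPM in replicate 2, against 26.4 TPM in replicate 1, both within 2-fold. The beta-glucuronidase Gusb, which removes the group again, had 14.3 TPM in replicate 2, against 16.7 TPM in replicate 1.

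For sulfate, 3 of 8 genes were higher in replicate 2 and 5 were within 2-fold, where 10.2% of all genes compared were higher. The PAPS synthase Papss2 had 18.3 TPM in replicate 2, against 5.65 TPM in replicate 1, while Papss1 had 15.3 TPM in replicate 2, against 17.7 TPM in replicate 1. The sulfate exchanger Slc26a1 had 26.6 TPM in replicate 2, against 0.02 TPM in replicate 1, from 3037 and 3 counts, a log2 ratio of 10.22 with an interval of 8.67 to 12.50. The other gene called higher, the sulfate carrier Slc13a4, rested on 14 counts in replicate 2 and 7 in replicate 1, and the interval of its log2 ratio, -0.17 to 2.79, included 0. Bpnt1, which breaks down the spent donor, and the Golgi transporter Slc35b2 were level, with log2 ratios of 0.18 and 0.19. Of the 10 transporters of conjugates, 6 were higher and 4 within 2-fold, against the same 10.2% higher over all genes. The uptake carrier Slco1b2 had 83.9 TPM in replicate 2, against 0.34 TPM in replicate 1, and Slco1a1 had 45.6 TPM in replicate 2, against 0.08 TPM in replicate 1. The canalicular pump Abcc2 had 26.5 TPM in replicate 2, against 0.15 TPM in replicate 1. Abcc3 and Abcc6 had log2 ratios of 3.44 and 7.02, and Abcc5 had 22.8 TPM in replicate 2, against 30.9 TPM in replicate 1.

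**Figure D5:**
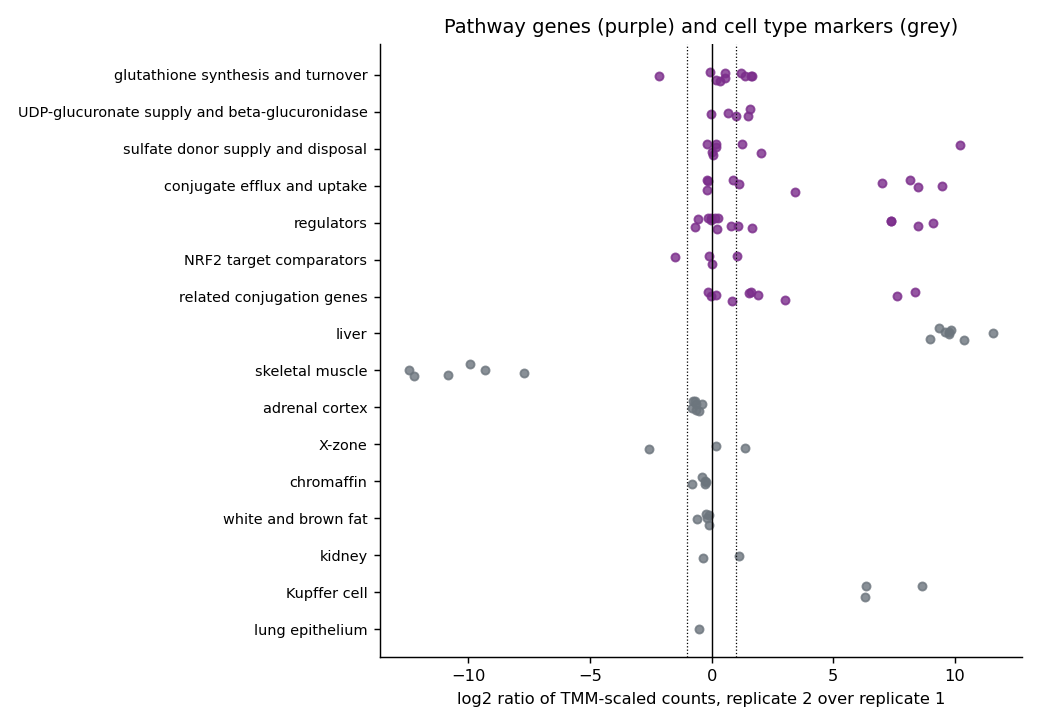
Log2 ratio of TMM-scaled counts, replicate 2 over replicate 1, of the genes of each pathway list (purple) and cell type marker list (grey) with at least 10 counts, 1 point a gene. Liver and Kupffer cell markers lie far to the right, skeletal muscle markers far to the left, and adrenal cortex, chromaffin and fat markers between the dotted 2-fold lines.

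Regulators known for these gene families differed among themselves. Of 15, 6 were higher in replicate 2 and 9 within 2-fold, where 10.2% of all genes compared were higher. Hnf4a, a hepatocyte nuclear receptor, had 37.2 TPM in replicate 2, against 0.19 TPM in replicate 1. The xenobiotic receptors Nr1i3 and Nr1i2 had 21.3 and 7.40 TPM in replicate 2, against 0.21 and 0.02 TPM in replicate 1. Rxra, their partner receptor, had a log2 ratio of 1.66. The oxidant-sensing factor Nfe2l2 (NRF2) had 23.7 TPM in replicate 2, against 30.9 TPM in replicate 1, and its log2 ratio of -0.16 and that of its inhibitor Keap1, 0.24, were small. Nr5a1 (SF-1), the steroidogenic cell factor, had 68.9 TPM in replicate 2, against 129 TPM in replicate 1. The 4 targets of NRF2 outside the conjugation families did not move together: Srxn1 was lower in replicate 2, with 31.8 TPM, than in replicate 1, with 111 TPM, and Txnrd1 and Hmox1 were within 2-fold. Nqo1 was called higher at a log2 ratio of 1.05 from 142 and 81 counts. Its interval, 0.645 to 1.46, reached below 2-fold. Among 10 related conjugation genes outside the name pattern 6 were higher and 4 within 2-fold, against the same 10.2% higher over all genes. Tpmt, a thiopurine methyltransferase, had 15.3 TPM in replicate 2, against 2.47 TPM in replicate 1. Of the remaining glycosyltransferase family, Ugt3a2 had 14.8 TPM in replicate 2, against 0.05 TPM in replicate 1, and Ugt3a1 had 7.26 TPM in replicate 2 and 0 counts in replicate 1. The Tpst1 and Tpst2 genes for tyrosylprotein sulfotransferases were level, with log2 ratios of 0.16 and -0.13.

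Promoter sequence was available from RefSeq for 58 of the 72 members, as 70 windows of 250 bases before and 50 after a start (build GRCm38.p6). The antioxidant response core TGACNNNGC, searched on both strands, was found in 4 of the 70 member windows (5.71%), those of Gsta3, Gstm5, Gstm7 and Mgst1, and in 12.4% of all 32851 windows. All 4 of these genes were detected in both libraries, and 4 of the 29 windows of members in that class held the core (13.8%), a share near that of all windows. The SF-1 site TCAAGGTCA was found in 0 of the 70 member windows and in 0.423% of all windows. These matches are letters in a window, not binding. The promoter below is that of Gsta3 at chr1:21240335-21240584 (plus strand), the most abundant member with a match whose 250 bases before the start hold no annotated exon, with the match in capitals.
Gsta3: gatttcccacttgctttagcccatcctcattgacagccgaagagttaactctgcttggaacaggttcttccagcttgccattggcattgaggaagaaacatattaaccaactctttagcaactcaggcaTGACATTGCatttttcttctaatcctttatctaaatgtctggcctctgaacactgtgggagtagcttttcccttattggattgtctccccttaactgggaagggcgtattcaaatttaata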

How the data were processed

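Each library came with 3 tables of values. Per the text files beside them, all rest on mm10 and annotation M21; a first quantification, per gene and per transcript, used reads aligned to transcripts, and a second, per transcript only, used reads with an index. The sources used here name no aligner and no quantifier. Per the file headers, the first tables hold the authors' expected counts, posterior mean and posterior SD of each count, and TPM, and the percent of a gene's TPM on each transcript as deposited. The deposited estimated counts and TPM of the second were summed here per gene.

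Members were taken by symbol from the second tables and joined by gene identifier to GENCODE M21 coordinates. The members and the gene lists were chosen with earlier results of these data known. Each member with at least 5 TPM in either library was named with both values, others by level or count, and from each list the 3 highest genes and those at least 4-fold apart with at least 1 TPM, plus others chosen after their values were seen (Gclc, Slc35d1, Slc35d2, Keap1, Nqo1, Gsto2, Gstt4, Gstm2-ps1, Sult1c2, Sult2b1, Ugt1a2, Ugt1a8, Ugt2a1, Ugt2a2 and Slc13a4). A few list genes that this rule names, and a motif searched for, are not reported here. Detection meant at least 1 TPM. Expected counts, rounded to whole numbers, were scaled with TMM factors of 0.923 for replicate 2 and 1.08 for replicate 1 (edgeR 4.0.16 in R 4.3.3), over annotated genes only; spike-ins held 0.915% of counts in replicate 2 and 0.839% in replicate 1. With 1 library on each side the quasi-likelihood test could not be fitted, so ratios carry Clopper-Pearson counting intervals (SciPy 1.17.1) and no p-value. A library at 0 counts was set to a floor of 3 counts. Ratios called bounds are taken against that floor and are not limits of a counting interval. Reads without molecular identifiers are not independent molecules, so the intervals cover counting error only. Alternatives were DESeq2 1.42.0 size factors, total counts, spike-ins, posterior means, the second quantification and other thresholds. TPM is relative to all entries, so abundant short RNAs lower all other values, and the second quantification gave TPM 1.66 times higher in replicate 2 and 1.72 times higher in replicate 1 at the median gene.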

Additional observations from a re-analysis of the deposited data

How the results depend on the processing

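The 25 members detected in both libraries became 26 at a level of 0.5 TPM, 19 at 5 TPM, 27 in the second quantification and 28 with TPM taken over nuclear protein-coding genes, and the 24 detected in replicate 2 only became 26, 20, 24 and 24. Equal counts hid changes of members. Over nuclear protein-coding genes, Gstp3 and Ugt1a7c moved to both libraries while Sult1c2 and Gstm2-ps1 entered replicate 2 only. At 5 TPM, Ugt1a1, Ugt1a6a, Ugt1a6b and Gstm6 moved from both libraries to replicate 2 only. No glucuronosyltransferase was then detected in both. With replicate 2 alone 49 members were detected, and with replicate 1 alone 25, so the count over both libraries is set by replicate 1. The 39 members called higher in replicate 2 became 38 under total counts or spike-ins, 39 under DESeq2 size factors and 40 with second-quantification or posterior mean counts, and ranged between 31 at 4-fold and 42 with a minimum of 1 count. No member was called lower in any of these 8 alternatives. Over all genes, spike-in scaling shifted the median log2 ratio of nuclear protein-coding genes to -0.37 and total counts to -0.24, against -0.01 under TMM. Of the 39 members named with at least 5 TPM, 25 left their counting interval under spike-ins and 20 under total counts. The intervals do not cover the choice of scaling. Gstt1 alone of these members crossed 2-fold, under either, and Gstk1 (-0.03) and Gstm5 (-0.11) changed sign under spike-ins. The summed share of all members, 0.226% of TPM, was 0.376% when taken from the second quantification, was 0.648% of the TPM of nuclear protein-coding genes, a smaller total, and ranged between 0.104% and 0.348% in single libraries. No paired analysis was possible because there is 1 group. With 1 library on each side, animal and library cannot be told apart. Members under about 10 counts were not compared.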
